A study of Mus musculus with 17 samples.

Results

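Gene expression in the hippocampi of all 12 epileptic mice, whichever guide RNA they had received, was compared with that of 5 control mice. The members were chosen by the labels alone and make up all 17 samples of the series, 6 epileptic sgLacZ (the Ctrl-dCas9A treatment), 6 epileptic sgKcna1 (Kcna1-dCas9A) and 5 control sgLacZ (sham control Ctrl-dCas9A). The question was which genes mark chronic epilepsy under either guide. The mice were C57BL/6J of both sexes, aged 2 to 3 months at surgery and older when hippocampi were taken. Epileptic mice had kainic acid injected into the right amygdala, which brought on status epilepticus, and controls were sham animals. All mice, controls included, carried AAV9 vectors in the right ventral hippocampus and were fed doxycycline. The vectors held dCas9-VP64, a Cas9 that cannot cut DNA fused to an activation domain, under a doxycycline-dependent promoter, together with a guide and a Camk2a-driven transactivator that favours excitatory neurons. The sgKcna1 guide targets the promoter of Kcna1, and sgLacZ has no target in the mouse genome. Hippocampi were taken after behavioural testing, so a sample mixes transduced and untransduced cells. No control mice with sgKcna1 were analysed here, so the pooled epileptic group holds a guide that the controls lack.

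Temporal lobe epilepsy develops in the hippocampus after an initial insult, often through loss of neurons, gliosis and rewiring of the dentate gyrus. Neuronal firing depends on voltage-gated sodium, calcium and potassium channels, the last of which end the action potential and hold the membrane near rest. Interneurons that release GABA restrain pyramidal and granule cells, and astrocytes and microglia become reactive when neurons are damaged. In bulk tissue, fewer cells of a type and less RNA per cell cannot be told apart.

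Between 11839240 and 28311328 reads per library fell in genes, and values below are counts relative to library size (CPM), scaled by TMM, a normalization that assumes most genes are unaltered. Epileptic sgKcna1 replicate 12 stood apart from the rest. It had the fewest reads in genes, 41.5% of its reads unmapped against 11.0% to 27.7% in the other 16 libraries, and the fewest genes detected, 20598. Both Xist and Y-linked reads lay above 1 CPM in 6 libraries, epileptic sgLacZ replicate 8, epileptic sgKcna1 replicates 1, 11 and 12, and control replicates 16 and 23. The source of these reads was not tested, and results without these 6 libraries are given beside the counts. Neither reads in genes nor the unmapped share differed between the 12 epileptic and 5 control libraries by more than the spread (two-sided exact permutation tests over 6188 splits, P = 0.670 and 0.536, adjusted over 5 measures 0.670 for both). Hippocampal markers were present in every library: the summed CPM of 10 dentate granule cell markers lay between 476 and 656 in controls and between 442 and 628 in epileptic libraries.

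Values of the targeted gene overlapped between the groups. Kcna1 (ENSMUSG00000047976.4, chromosome 6, 126636463 to 126645801, GRCm38.p6) encodes Kv1.1, a potassium channel of axons that limits repetitive firing. Kcna1 measured 37.6, 44.03, 25.5, 33.7 and 34.6 CPM in control replicates 13, 14, 15, 16 and 23, an order kept below for all control values. The 12 epileptic libraries had a lowest value of 13.9, a median of 22.4 and a highest of 133 CPM. That highest value was epileptic sgKcna1 replicate 12. The other 5 libraries labelled sgKcna1 had 13.9 to 29.5 CPM, and 4 of these lay below the lowest control. The pooled log2 fold change was -0.06 (SE 0.43, edgeR, P adjusted by Benjamini-Hochberg = 0.950). Leaving out replicate 12 moved it to -0.54 (edgeR adjusted P = 0.104), and limma voom with sample quality weights called Kcna1 lower in epileptic libraries, at -0.67 (adjusted P = 0.0136). The pooled contrast takes no direction from the guide labels, which Kcna1 did not bear out in these libraries. By quantitative PCR the study found Kcna1 raised in injected hippocampi of Kcna1-dCas9A mice relative to the opposite hippocampus. It saw no clear rise by RNA sequencing and proposes that few Kcna1 reads may be the reason, which was not tested here.

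None of 17615 tested genes passed an adjusted P of 0.05 in the pooled contrast (edgeR quasi-likelihood test, percent called 0, smallest adjusted P = 0.101). An unadjusted P under 0.05 was reached by 3948 genes, 22.4% of those tested, where 881 would be expected if no gene differed. Of these, 2302 (13.1%) were higher and 1646 (9.34%) lower in epileptic hippocampi, with a median size of the log2 fold change of 0.45. Adjusted P values (edgeR) began at 0.101, and 1312 genes had one under 0.15. DESeq2 called 634 genes, 462 higher and 172 lower.

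Single libraries decided this count. Without epileptic sgKcna1 replicate 12, 2904 of 17608 genes passed the threshold (16.5%), 1636 higher (9.29%) and 1268 lower (7.20%). Leaving out epileptic sgLacZ replicate 5 instead gave 1821 genes, 983 higher and 838 lower. Each of the other 15 leave-one-out fits gave 0 genes. Over the 17 such fits 2490 to 6238 genes had an unadjusted P under 0.05. The fit without the 6 libraries with reads of both sexes also gave 0 (4504 at an unadjusted P under 0.05). Leaving out control replicates 13 and 14 together with replicate 12 gave 0 genes as well (edgeR, smallest adjusted P = 0.218). The fit without replicate 12 is called the 16-library fit below, and its adjusted P is given beside the value from all 17 libraries. It was picked after these data were seen and gave the most genes of the 17 fits. Its adjusted P therefore shows dependence on 1 library and is not separate support. Replicate 12 was also the only library labelled sgKcna1 with Kcna1 above every control.

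**Figure D1:**
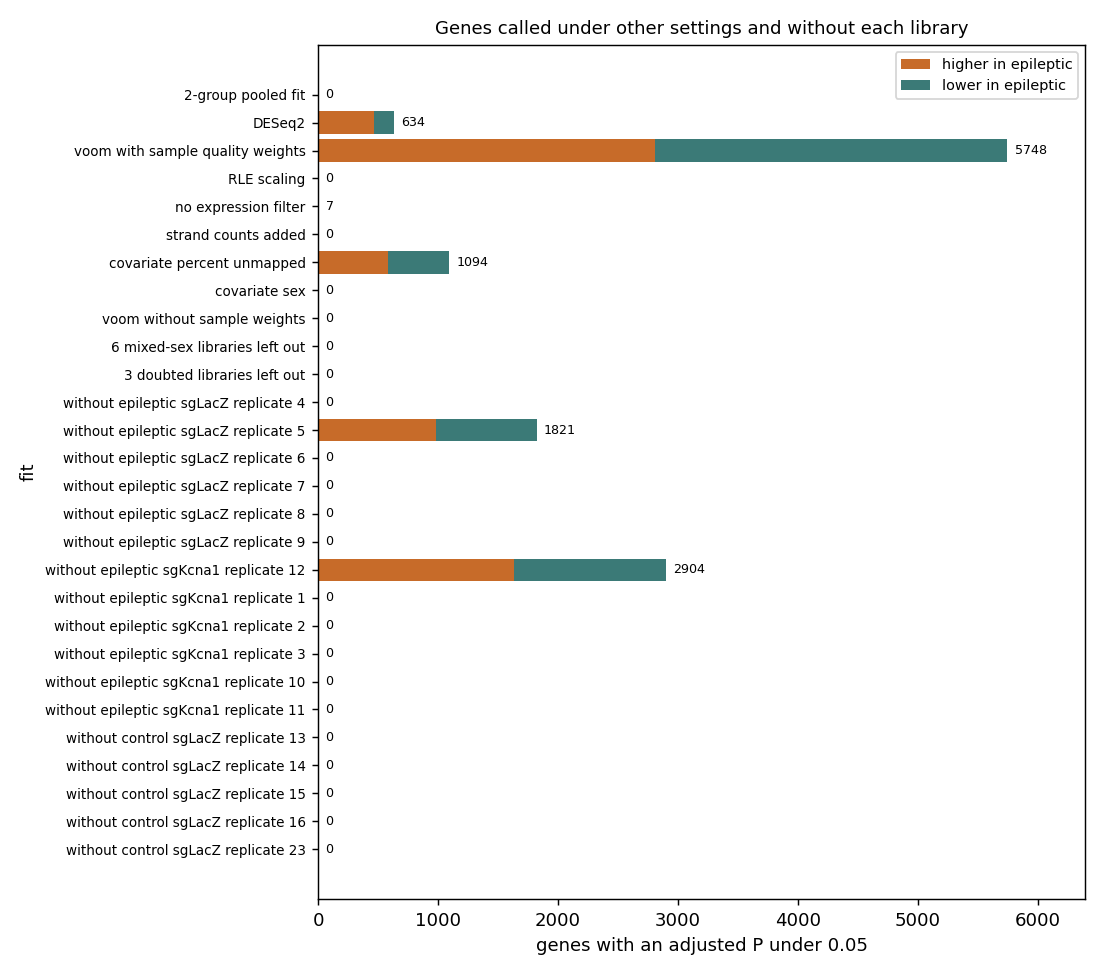
Bars give the number of genes with an adjusted P under 0.05 (x axis) for epileptic against control hippocampi in each alternative fit (y axis), split into genes higher and lower in epileptic libraries. Most fits gave 0 genes, and leaving out epileptic sgKcna1 replicate 12 or epileptic sgLacZ replicate 5 gave 2904 and 1821.

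For 44 genes the CPM of the 12 epileptic libraries lay wholly outside that of the 5 controls, 0.250% of those tested. All 12 epileptic libraries lay above every control for 17 of these and below every control for 27. The separation was narrow: the gap between the nearest epileptic and control libraries reached 1.1-fold for 5 of the 44 genes. The epileptic library nearest to the controls was epileptic sgLacZ replicate 5 for 13 of the 44 genes, and epileptic sgKcna1 replicate 12 for 3. With all 17 libraries their adjusted P ranged from 0.101 to 0.161. The 16-library fit called 41 of the 44, the fit without epileptic sgLacZ replicate 5 called 40 and DESeq2 called 35 (all adjusted P under 0.05). Over all tested genes these fits called 2904 of 17608, 1821 of 17650 and 634 of 17615. The 44 were chosen for separation in these same libraries, so high counts were built in and lend no support. Voom with sample quality weights called 44, and edgeR called 35 with the unmapped share and 0 with sex as a covariate. With forward- and reverse-strand counts added in place of unstranded counts, 0 of the 44 passed (edgeR) and the sign changed for 2. Without the 6 libraries with reads of both sexes, 1253 genes did not overlap (18076 tested). That fit keeps only control replicates 13, 14 and 15, all male, and fewer libraries separate more readily. The count is therefore not comparable with the 44.

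**Figure D2:**
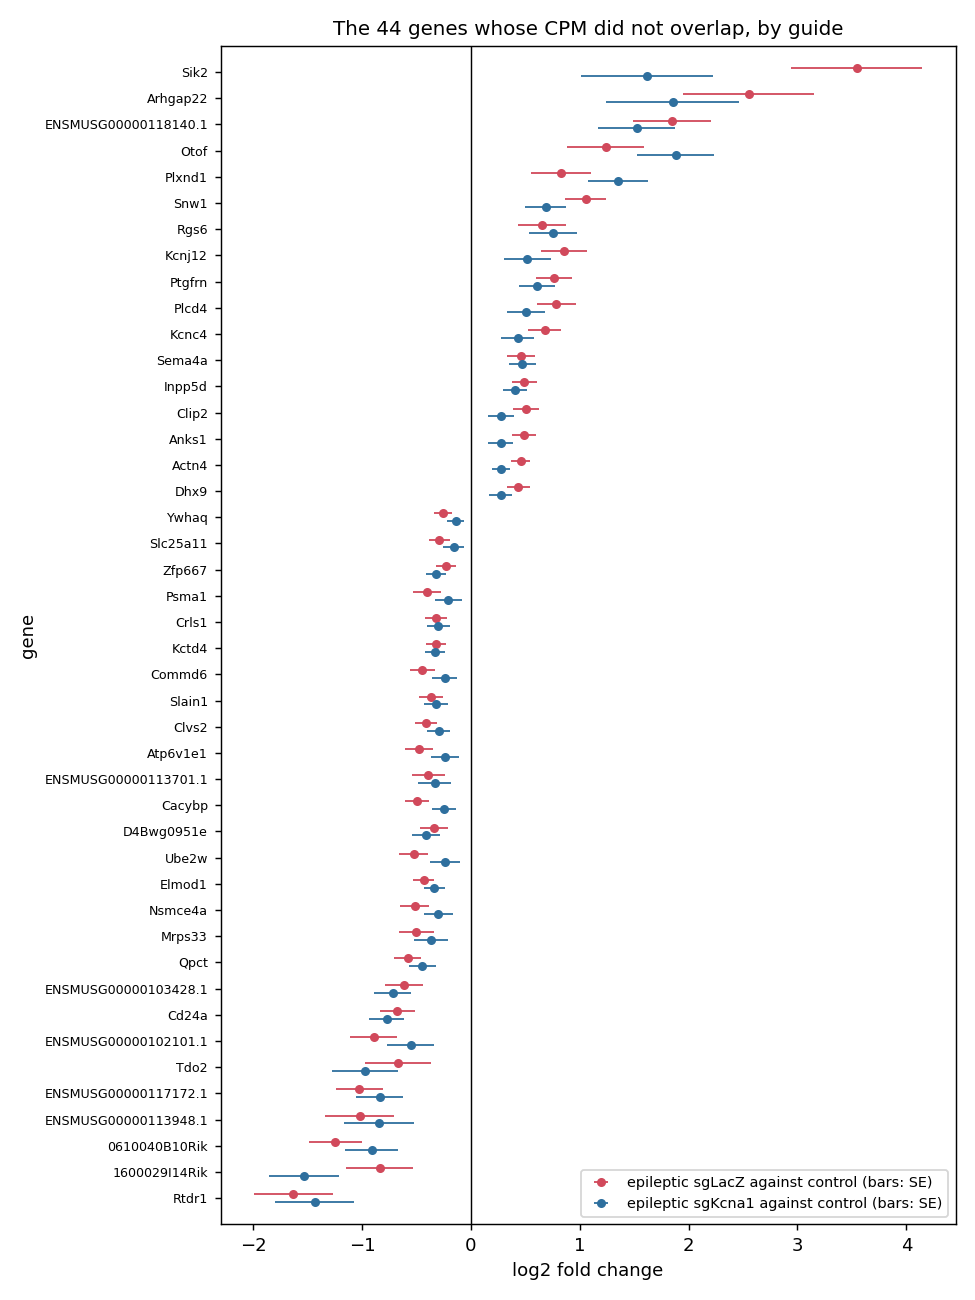
Points give the log2 fold change (x axis) of the epileptic sgLacZ and epileptic sgKcna1 groups against the same 5 controls for the 44 genes whose CPM did not overlap (y axis), with bars of 1 SE. Both groups share their controls, and the genes were chosen for lying on the same side in all 12 epileptic libraries.

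Among these genes, those with a symbol, a mean level of 5 CPM or more, and reads not lost to an overlapping gene are described first, 5 in each direction with the smallest P. None passed the threshold with all 17 libraries. The higher genes were a semaphorin and a semaphorin receptor, a potassium channel, a phosphatase and a membrane glycoprotein. Plxnd1 (ENSMUSG00000030123.15, chromosome 6, 115954811 to 115995339) encodes plexin D1, a receptor for semaphorins that steers axons and vessels. Plxnd1 measured 13.4, 13.6, 16.0, 16.6 and 14.0 CPM in controls, and the epileptic libraries had a lowest of 16.7, a median of 26.9 and a highest of 75.1 CPM. The lowest epileptic value, in sgLacZ replicate 5, was 1.00 times the highest control, so the groups met without overlapping. Its pooled log2 fold change was 1.09 (SE 0.25, edgeR adjusted P = 0.127, 16-library fit 0.0138).

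Sema4a (ENSMUSG00000028064.17, chromosome 3, 88435959 to 88461182) encodes a transmembrane semaphorin. Its control values were 22.2, 18.8, 21.8, 17.9 and 22.5 CPM against a lowest, median and highest of 22.7, 27.7 and 37.2 CPM in epileptic libraries. The log2 fold change of Sema4a was 0.47 (SE 0.11, edgeR adjusted P = 0.127, 16-library fit 0.0179). Kcnc4 (ENSMUSG00000027895.9, chromosome 3, 107438298 to 107460287) encodes Kv3.4, a fast-activating potassium channel of axons and terminals. Kcnc4 measured 66.0, 57.1, 68.8, 62.7 and 63.0 CPM in controls and from 72.7 through a median of 89.8 to 141 CPM in epileptic libraries. Its highest value was in epileptic sgLacZ replicate 7 and its lowest in epileptic sgLacZ replicate 5, and its log2 fold change was 0.55 (SE 0.14, edgeR adjusted P = 0.127, 16-library fit 0.0175).

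Inpp5d (ENSMUSG00000026288.14, chromosome 1, 87620312 to 87720510) encodes SHIP1, an inositol phosphatase that in brain is found mainly in microglia. It had 5.84, 5.95, 6.40, 5.597 and 6.90 CPM in controls and a lowest, median and highest of 7.82, 8.16 and 9.98 CPM in epileptic libraries. Of the 10 genes it had the least spread among epileptic libraries relative to its level, with a mean of 8.37 ± 0.61 CPM (SD, n = 12) against 6.14 ± 0.51 (SD, n = 5). The log2 fold change of Inpp5d was 0.45 (SE 0.10, edgeR adjusted P = 0.127, 16-library fit 0.0156). Ptgfrn (ENSMUSG00000027864.9, chromosome 3, 101040230 to 101110745) encodes a membrane glycoprotein of the immunoglobulin superfamily that binds tetraspanins. Ptgfrn measured 10.4, 8.78, 11.1, 10.4 and 8.37 CPM in controls and from 11.2 through a median of 14.5 to 24.2 CPM in epileptic libraries, a log2 fold change of 0.68 (with SE 0.15, adjusted P by edgeR = 0.127, 16-library fit 0.0158).

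**Figure D3:**
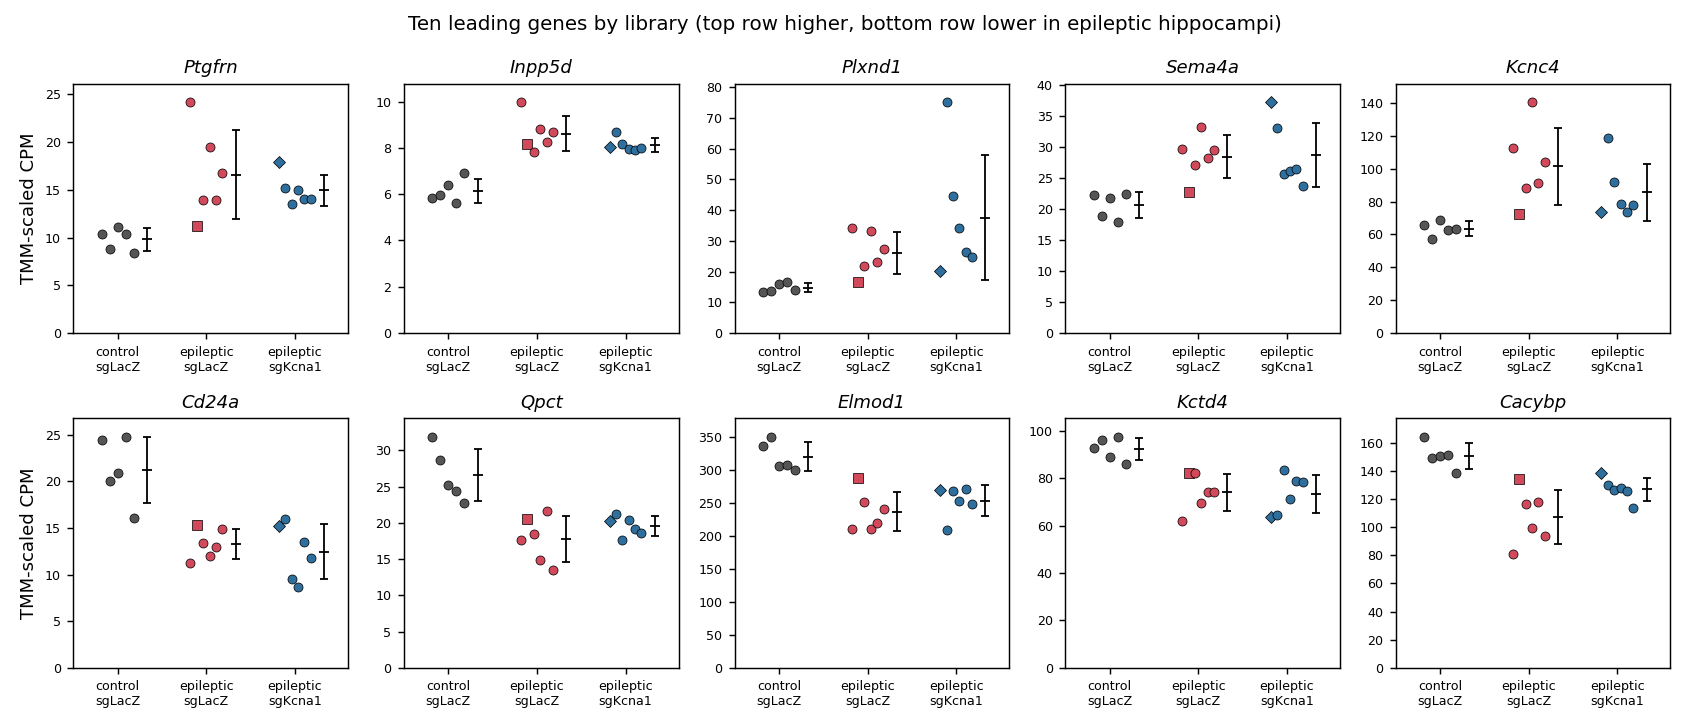
TMM-scaled CPM (y axes, linear from 0) of the 10 genes in each library of the 3 groups (x axes), with the mean and SD to the right of each group; the square is epileptic sgLacZ replicate 5 and the diamond epileptic sgKcna1 replicate 12. In the top row every epileptic library lies above the controls and in the bottom row below them, with little room between the nearest points.

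The lower genes were a surface glycoprotein, a peptide-modifying enzyme and 3 intracellular proteins. Cd24a (ENSMUSG00000047139.9, chromosome 10, 43579169 to 43584265) encodes a small surface glycoprotein that is abundant on immature neurons. It measured 24.4, 20.02, 20.9, 24.8 and 16.0 CPM in controls and a lowest, median and highest of 8.67, 13.2 and 16.0 CPM in epileptic libraries. The log2 fold change of Cd24a was -0.72 (SE 0.14, edgeR adjusted P = 0.101, 16-library fit 0.0132). Qpct (ENSMUSG00000024084.8, chromosome 17, 79051906 to 79090378) encodes glutaminyl cyclase, which forms the pyroglutamate end of peptide hormones. Qpct had 31.9, 28.7, 25.3, 24.4 and 22.8 CPM in controls and from 13.5 through a median of 18.9 to 21.7 CPM in epileptic libraries, a log2 fold change of -0.51 (with SE 0.11, adjusted P by edgeR = 0.110, 16-library fit 0.0145).

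Elmod1 (ENSMUSG00000041986.16, chromosome 9, 53911457 to 53975428) encodes a regulator of small GTPases of the Arf family. Elmod1 measured 337, 351, 306, 309 and 299.9 CPM in controls and from 210.1 through a median of 250.5 to 288 CPM in epileptic libraries. Its log2 fold change was -0.38 (SE 0.08, edgeR adjusted P = 0.127, 16-library fit 0.0138). Cacybp (ENSMUSG00000014226.10, chromosome 1, 160202367 to 160212892), whose product binds calcyclin and takes part in ubiquitination, had 164, 149, 151, 151 and 139 CPM in controls. Its epileptic values ran from 80.7 through a median of 122 to 138 CPM, a log2 fold change of -0.37 (with SE 0.09, adjusted P by edgeR = 0.127, 16-library fit 0.0175). Kctd4 (ENSMUSG00000046523.5, chromosome 14, 75955003 to 75965217) belongs to a family with a potassium channel tetramerization domain. Kctd4 had 92.8, 96.1, 89.0, 97.4 and 86.0 CPM in controls and from 61.8 through a median of 74.1 to 83.4 CPM in epileptic libraries, a log2 fold change of -0.33 (with SE 0.08, adjusted P by edgeR = 0.127, 16-library fit 0.0178).

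The guides were then compared directly for these 10 genes. No gene of the whole table passed the threshold between epileptic sgKcna1 and epileptic sgLacZ libraries (edgeR, 0 of 17615). The smallest adjusted P was 0.0815, and 3387 genes were under 0.05 before adjustment. DESeq2 called 134 genes. Among the 44 non-overlapping genes, 6 had an unadjusted P under 0.05 for the guide, and their smallest adjusted P was 0.213. Sema4a had log2 fold changes of 0.46 with sgLacZ and 0.47 with sgKcna1, and the guide difference was 0.01 (SE 0.12). Kctd4 had -0.32 and -0.33, a guide difference of -0.01 (SE 0.09). Plxnd1 had 0.83 and 1.35, a guide difference of 0.53 (SE 0.25, edgeR adjusted P = 0.262), and Cacybp had -0.49 and -0.25, a difference of 0.25 (SE 0.10, edgeR adjusted P = 0.230). These tests do not show that the guides act alike. The guide groups also differ in their share of females, as listed with the sexes below. The epileptic sgLacZ group alone differed from controls at 1940 genes and the epileptic sgKcna1 group at 0 (edgeR, 1192 at an unadjusted P under 0.05), and both used the same controls.

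The size of the difference was also read within each sex, as called from Xist and Y-linked reads (6 epileptic and 2 control females, 6 epileptic and 3 control males). The direction within a sex was fixed by choosing genes without overlap, and both control females, replicates 16 and 23, are among the 6 libraries with reads of both sexes. For Plxnd1 the difference in mean log2 CPM was 0.67 in females and 1.30 in males. For Cd24a it was -0.61 and -0.81, and for Inpp5d 0.44 and 0.44. None was tested within a sex. Epileptic sgLacZ replicates 4, 5, 6 and 7 were called female and 8 and 9 male. Epileptic sgKcna1 replicates 11 and 12 were called female and 1, 2, 3 and 10 male. The sexes therefore differ in guide as well, and a difference between them cannot be told apart from one between guides.

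Others of the 44 genes were of varied function, and those named here were picked after their values were seen. Otof, which encodes the vesicle calcium sensor otoferlin, measured 1.21 to 2.30 CPM in controls and from 2.37 through a median of 4.25 to 14.9 CPM in epileptic libraries (log2 fold change 1.56, SE 0.33, edgeR adjusted P = 0.110, 16-library fit 0.0146). Kcnj12 (Kir2.2, an inward rectifier potassium channel) and Rgs6, which shortens G protein signals, were also higher in all 12 libraries, with log2 fold changes of 0.69 and 0.71. Tdo2, a tryptophan-degrading enzyme that marks mature granule cells in the dentate gyrus, measured 7.06 to 11.0 CPM in controls and 1.21 to 6.94 CPM in epileptic libraries (log2 fold change -0.82, SE 0.26, edgeR adjusted P = 0.137). Crls1, which makes cardiolipin, the mitoribosomal gene Mrps33, the proton pump subunit Atp6v1e1 and the proteasome subunit Psma1 were lower in all 12, with log2 fold changes of -0.31, -0.43, -0.36 and -0.30. Sik2, Snw1, Actn4, Plcd4 and Arhgap22 were higher in all 12, but lose reads to overlapping genes on the other strand, so their levels are uncertain.

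Ion channel genes were more often higher than lower. Of 33 voltage-gated potassium channel genes and their subunits, 11 were higher and 2 lower at an unadjusted P under 0.05 (median log2 fold change 0.14), beside 13.1% higher and 9.34% lower over all tested genes (median 0.02). The 16-library fit called 5 higher and 2 lower, 21.2% beside 16.5% of all genes in that fit, and DESeq2 called 4 and 1. The list median was 0.20 with sgLacZ and 0.11 with sgKcna1. Kcnip3, which encodes the calcium-binding protein DREAM, a partner of Kv4 channels, measured 78.4, 79.7, 87.3, 85.96 and 91.2 CPM in controls and from 89.7 through a median of 108 to 163 CPM in epileptic libraries. It was above every control in 11 of 12 epileptic libraries (log2 fold change 0.48, SE 0.14, edgeR adjusted P = 0.128, 16-library fit 0.0294).

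Of 19 calcium-activated, inward rectifier and leak potassium channel genes, 7 were higher and 0 lower at an unadjusted P under 0.05 (median 0.11). This was 36.8% against 22.4% of all tested genes. The 16-library fit called 4 higher and 1 lower (26.3% against 16.5%), and DESeq2 1 and 0. Kcnt1, a sodium-activated potassium channel, had 10.7, 13.2, 21.7, 14.2 and 20.9 CPM in controls and from 13.1 through a median of 24.8 to 37.2 CPM in epileptic libraries. The groups overlapped, 7 of 12 epileptic libraries lay above every control, and the log2 fold change was 0.68 (SE 0.23, edgeR adjusted P = 0.146, 16-library fit 0.0286). Kcnn1, a small-conductance calcium-activated channel, had a log2 fold change of 0.40 (with SE 0.15, adjusted P by edgeR = 0.164, 16-library fit 0.0310).

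HCN, sodium and calcium channels showed a like split, with 8 of 32 higher and 1 lower (28.1% against 22.4% of all tested genes, median 0.21). The 16-library fit called 7 higher and 2 lower (28.1% against 16.5%), and DESeq2 1 and 0. Hcn4, a pacemaker channel that opens on hyperpolarization, measured 0.81, 2.08, 0.88, 0.67 and 0.29 CPM in controls, where 3 reads give 0.106 to 0.253 CPM over the 17 libraries. Epileptic libraries had from 1.40 through a median of 2.09 to 8.99 CPM, and 6 of 12 lay above every control. Its log2 fold change was 1.62 (SE 0.47, edgeR adjusted P = 0.128, 16-library fit 0.0294). The calcium channel genes Cacna1g (T-type) and Cacna1e (R-type) were above every control in 10 and 9 of 12 libraries. Their log2 fold changes were 0.53 (SE 0.17) and 0.59 (SE 0.19), with edgeR adjusted P of 0.136 and 0.141 (16-library fit 0.0469 and 0.0339).

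**Figure D4:**
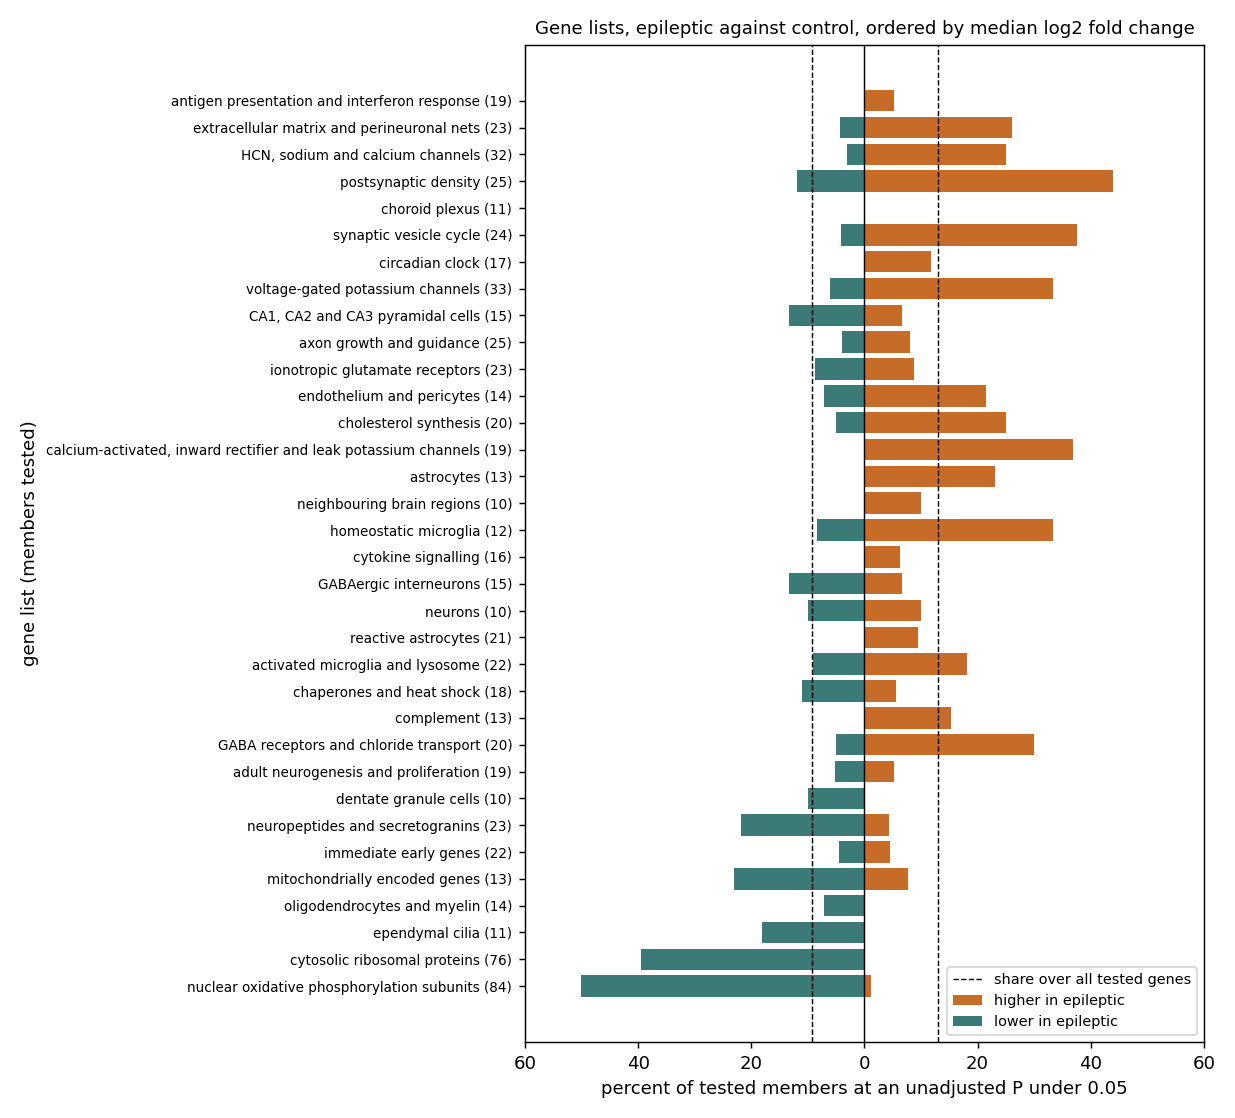
Bars give the percent of tested members of each gene list (y axis, number tested in brackets, lists of at least 10) that were higher or lower in epileptic hippocampi at an unadjusted P under 0.05 (x axis), and dashed lines the same over all 17615 genes. Postsynaptic density, synaptic vesicle and potassium channel lists lie towards higher, and ribosomal protein and oxidative phosphorylation lists towards lower.

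Genes of the synapse followed. Of 25 postsynaptic density genes, 11 were higher and 3 lower at an unadjusted P under 0.05 (56% against 22.4% of all tested genes, median 0.20). The list median was 0.20 with sgLacZ and 0.16 with sgKcna1. In contrast, the 16-library fit called 7 higher and 6 lower (52% against 16.5%), and DESeq2 1 and 0. Shank3, a scaffold of excitatory synapses, measured 59.7, 70.7, 94.2, 79.0 and 73.4 CPM in controls and from 48.3 through a median of 111 to 309 CPM in epileptic libraries. Its lowest value was epileptic sgKcna1 replicate 12 and its highest epileptic sgLacZ replicate 4, and its log2 fold change was 0.76 (SE 0.26, edgeR adjusted P = 0.146, 16-library fit 0.0357). Dlgap2, which binds Shank proteins, had the same 2 libraries at its ends and a log2 fold change of 0.83 (with SE 0.26, adjusted P by edgeR = 0.137, 16-library fit 0.0285). Of 24 synaptic vesicle genes, 9 were higher and 1 lower (41.7%, median 0.17), and 4 and 1 in the 16-library fit (20.8%). DESeq2 called 0 of them in either direction. Slc17a7, the vesicular glutamate transporter VGLUT1, measured 564, 689, 726, 741 and 772 CPM in controls and from 565 through a median of 956 to 1573 CPM in epileptic libraries (log2 fold change 0.56, SE 0.19, edgeR adjusted P = 0.143, 16-library fit 0.0285).

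Transmitter receptor genes lay on both sides. Of 23 ionotropic glutamate receptor genes, 2 were higher and 2 lower (17.4%, below the 22.4% of all tested genes, median 0.12). The 16-library fit called 4 and 1 (21.7% against 16.5%). Gria2, the AMPA receptor subunit that limits calcium entry, measured 1304, 1406, 1303, 1444 and 1299 CPM in controls and from 564 through a median of 975 to 1662 CPM in epileptic libraries. It lay below every control in 11 of 12 epileptic libraries, and the exception, epileptic sgKcna1 replicate 12, lay above every control. The log2 fold change of Gria2 was -0.45 (SE 0.14, edgeR adjusted P = 0.139, 16-library fit 0.0173). Grik3, a kainate receptor subunit, was above every control in 9 of 12 (log2 fold change 0.73, SE 0.25, edgeR adjusted P = 0.146, 16-library fit 0.0447). Among 20 GABA receptor and chloride transport genes, 6 were higher and 1 lower (35%, median -0.03), and 4 and 4 in the 16-library fit (40%). Slc12a5, the neuronal chloride extruder KCC2, measured 364, 365, 362, 379 and 409 CPM in controls and from 385 through a median of 466.1 to 669 CPM in epileptic libraries (log2 fold change 0.33, SE 0.11, edgeR adjusted P = 0.139, 16-library fit 0.0349). Gabra3 was above every control in 10 of 12 libraries (log2 fold change 0.55, SE 0.19, edgeR adjusted P = 0.146, 16-library fit 0.0185). Gabrb2 differed most between guides of the genes named here, with log2 fold changes of 2.96 with sgLacZ and 0.68 with sgKcna1, a difference that did not pass adjustment (edgeR adjusted P = 0.213). Its epileptic values ran from 2.52 through a median of 7.05 to 69.6 CPM.

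Interneuron and peptide genes were described next. Of 15 interneuron genes, 1 was higher and 2 were lower at an unadjusted P under 0.05 (20% against 22.4% of all tested genes, median log2 fold change 0.00015), and 0 in either direction passed in the 16-library fit (edgeR). Pvalb (parvalbumin, the calcium buffer of fast-spiking interneurons) measured 124, 126, 89.8, 111 and 110.3 CPM in controls and from 30.4 through a median of 56.4 to 145 CPM in epileptic libraries. It was below every control in 9 of 12, with a log2 fold change of -0.76 (with SE 0.28, adjusted P by edgeR = 0.157, 16-library fit 0.0559). Sst, the peptide of dendrite-targeting interneurons, was below every control in 8 of 12 (log2 fold change -0.50, SE 0.22, edgeR adjusted P = 0.200, 16-library fit 0.0907). Epileptic sgLacZ replicate 5 was high for both, at 119 CPM of Pvalb and 810.5 CPM of Sst, and without it the edgeR adjusted P was 0.0270 and 0.0283. Gad1, the main GABA-synthesizing enzyme, had 311 ± 38.8 CPM (SD, n = 12) in epileptic and 339 ± 17.6 (SD, n = 5) in control libraries. Its log2 fold change was -0.13 (SE 0.09, edgeR adjusted P = 0.395), and it was chosen after its values were seen.

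Of 23 neuropeptide and secretogranin genes, 1 was higher and 5 were lower (26.1% against 22.4% of all tested genes, median -0.10). The 16-library fit called 1 and 1 (8.70% against 16.5%). The list median was -0.29 with sgLacZ and 0.06 with sgKcna1, a difference that was not tested. In the 16-library fit the pooled list median was -0.22. Nptx2, an activity-induced pentraxin that clusters AMPA receptors, measured 18.3, 20.5, 21.7, 21.99 and 19.1 CPM in controls and from 21.3 through a median of 32.7 to 69.8 CPM in epileptic libraries. It exceeded every control in 11 of 12 libraries (log2 fold change 0.75, SE 0.20, edgeR adjusted P = 0.127, 16-library fit 0.0151). Cck and Nts, the genes of cholecystokinin and neurotensin, were below every control in 10 and 9 of 12 libraries. Their log2 fold changes were -0.58 (SE 0.20) and -0.71 (SE 0.20), with edgeR adjusted P of 0.148 and 0.128 (16-library fit 0.0600 and 0.0254). Ntf3, the neurotrophin of adult granule cells, measured 17.8, 14.7, 12.3, 14.1 and 12.5 CPM in controls and from 3.91 through a median of 9.01 to 13.4 CPM in epileptic libraries (log2 fold change -0.80, SE 0.23, edgeR adjusted P = 0.131, 16-library fit 0.0323). Bdnf and Npy, which seizures are known to induce, had log2 fold changes of -0.27 (SE 0.21) and -0.11 (SE 0.24), with edgeR adjusted P of 0.452 and 0.801; both were chosen after their values were seen. Among 22 immediate early genes, 1 was higher and 1 lower (9.09%, below the 22.4% of all tested genes). Fosb, a transcription factor gene induced by repeated activity, had a log2 fold change of 0.47 (with SE 0.18, adjusted P by edgeR = 0.164), and the nuclear receptor gene Nr4a3 had -0.36 (SE 0.12, edgeR adjusted P = 0.146, 16-library fit 0.0264). Sema3a, a secreted repellent of axons, had a log2 fold change of 1.02 (with SE 0.30, adjusted P by edgeR = 0.131, 16-library fit 0.0271).

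Ribosomal protein genes and nuclear genes of the respiratory chain were lower in most epileptic libraries. Of 76 cytosolic ribosomal protein genes, 0 were higher and 30 lower at an unadjusted P under 0.05 (39.5% against 22.4% of all tested genes). Their median log2 fold change was -0.37, with -0.53 under sgLacZ and -0.19 under sgKcna1. The 16-library fit called 0 higher and 13 lower (17.1% against 16.5%), and DESeq2 0 and 0. Of 84 nuclear genes of oxidative phosphorylation, 1 was higher and 42 were lower (51.2%). Their median was -0.40, with -0.54 under sgLacZ and -0.24 under sgKcna1. The 16-library fit called 2 and 37 (46.4%), and DESeq2 0 and 1. Of 13 mitochondrially encoded genes, 1 was higher and 3 were lower at an unadjusted P under 0.05 (median -0.19). The 16-library fit called 2 of these higher and 0 lower. Their summed CPM had a median of 24838 in epileptic and 23670.5 in control libraries. Summed over the list, ribosomal protein genes made up 27498 to 34867 CPM in controls, and from 13439 through a median of 24044 to 36612 CPM in epileptic libraries. The 2 epileptic libraries within or above the control range were sgLacZ replicate 5 and sgKcna1 replicate 12, and the other 10 lay below every control. Rps4x, of the small ribosomal subunit, measured 483, 453, 475, 440 and 452 CPM in controls and from 233 through a median of 373 to 449 CPM in epileptic libraries (log2 fold change -0.35, SE 0.11, edgeR adjusted P = 0.142, 16-library fit 0.0362). Rpl21, of the large subunit, had a log2 fold change of -0.38 (with SE 0.15, adjusted P by edgeR = 0.165, 16-library fit 0.0447). Ndufs3 of complex I and Uqcrfs1 of complex III were below every control in 9 and 11 of 12 libraries, with log2 fold changes of -0.43 (SE 0.13) and -0.40 (SE 0.12) and edgeR adjusted P of 0.131 and 0.136 (16-library fit 0.0294 and 0.0366).

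Transcript length moved with the same comparison. When the tested genes with a known transcript (14619 of 17615) were split into 4 bins by the length of their longest coding transcript, the bin of shortest transcripts had 136 genes higher and 795 lower at an unadjusted P under 0.05, and a median log2 fold change of -0.18. The bin of longest transcripts had 813 higher and 104 lower, and a median of 0.14. At an adjusted P under 0.05 the 16-library fit called 141 higher and 461 lower in the shortest bin (median -0.19) and 406 higher and 217 lower in the longest (median 0.13). Per library, the median centred log2 CPM of the shortest bin minus that of the longest ran from 0.13 to 0.41 in controls and from -0.89 through a median of 0.02 to 0.34 in epileptic libraries. It correlated with the percent of unmapped reads over the 17 libraries (Pearson r = 0.659, permutation P = 0.0113, adjusted over 3 relations 0.0169; Spearman rho = 0.811, permutation P = 0.00023, adjusted 0.00069). Without the 2 libraries farthest from the median unmapped share r was 0.885. Within the 6 epileptic sgLacZ libraries r was 0.994 (exact permutation P = 0.00139, adjusted 0.00417) and rho was 1.0 (exact permutation P = 0.00278), and within the 6 epileptic sgKcna1 libraries r was 0.389 (exact permutation P = 0.453) and rho was 0.657 (exact permutation P = 0.175). No correlation was computed within the 5 controls. The part of this gradient in the gene lists was tested only by adding the unmapped share to the fit. With that covariate 1094 genes passed, 586 higher and 508 lower, the ribosomal protein list had 0 higher and 9 lower (median -0.29), oxidative phosphorylation 0 and 30 (median -0.33), and voltage-gated potassium channels 4 and 1 (median 0.10). Postsynaptic density genes had 4 and 3 (median 0.17) and synaptic vesicle genes 1 and 0 (median 0.08). Calcium-activated, inward rectifier and leak potassium channels had 2 and 1 (median 0.10), and HCN, sodium and calcium channels 1 and 0 (median 0.11).

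**Figure D5:**
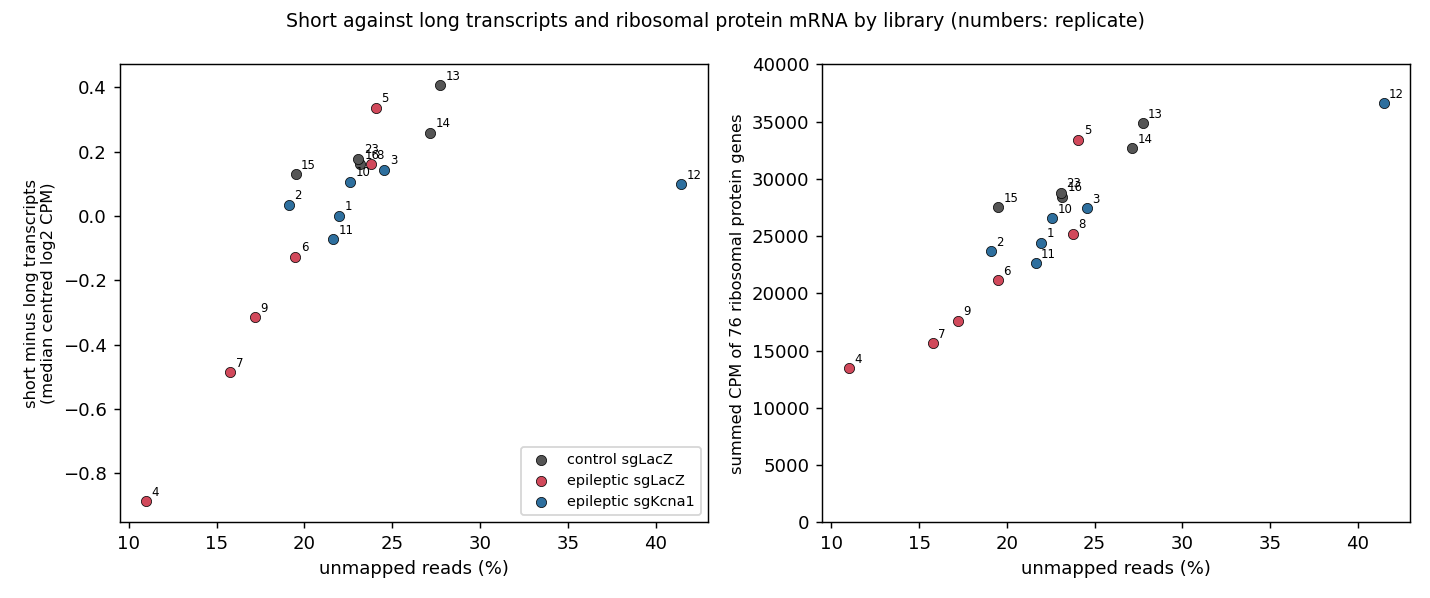
Each point is a library, with its unmapped reads in percent on the x axis. The left y axis is the median centred log2 CPM of genes with the shortest minus the longest transcripts and the right y axis the summed CPM of 76 ribosomal protein genes; epileptic sgLacZ replicates 4, 7 and 9 lie lowest on both, and epileptic sgLacZ replicate 5 and sgKcna1 replicate 12 lie among or above the controls on the right.

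Glial and immune lists lay on both sides of the 22.4% of all tested genes with an unadjusted P under 0.05, from 5.26% for antigen presentation and interferon genes to 41.7% for homeostatic microglia. Of 13 astrocyte genes 3 were higher and 0 lower (median 0.10), and of 21 genes of reactive astrocytes 2 were higher and 0 lower (median -0.01). Gfap, the intermediate filament of astrocytes, measured 268, 295, 340, 317 and 331 CPM in controls and from 262 through a median of 419 to 630 CPM in epileptic libraries. It exceeded every control in 8 of 12, with a log2 fold change of 0.45 (with SE 0.16, adjusted P by edgeR = 0.152, 16-library fit 0.0771). Slc1a3, the glutamate transporter GLAST, had a log2 fold change of 0.31 (with SE 0.10, adjusted P by edgeR = 0.144, 16-library fit 0.0375). Osmr, the oncostatin M receptor, was above every control in 11 of 12 libraries at a low level (log2 fold change 0.78, SE 0.22, edgeR adjusted P = 0.127, 16-library fit 0.0270).

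Of 12 genes of homeostatic microglia 4 were higher and 1 lower (median 0.09), of 22 genes of activated microglia and lysosomes 4 and 2 (median -0.01), of 13 complement genes 2 and 0 (median -0.01) and of 19 antigen presentation and interferon genes 1 and 0 (median 0.30). Cd68, a lysosomal protein of phagocytes, had a log2 fold change of 0.69 (with SE 0.26, adjusted P by edgeR = 0.161, 16-library fit 0.0588). Itgb2, the beta chain of complement receptor 3, was above every control in 11 of 12 libraries (log2 fold change 0.53, SE 0.17, edgeR adjusted P = 0.136, 16-library fit 0.0258). Tap1, the peptide transporter of class I antigen presentation, had a log2 fold change of 0.98 (with SE 0.33, adjusted P by edgeR = 0.146, 16-library fit 0.0409). Among 23 extracellular matrix and perineuronal net genes 6 were higher and 1 lower (30.4% against 22.4% of all tested genes, median 0.22). The list median was 0.34 with sgLacZ and -0.002 with sgKcna1. The lower gene, Mmp14, a membrane-bound metalloproteinase, was below every control in 11 of 12 libraries (log2 fold change -0.55, SE 0.15, edgeR adjusted P = 0.127, 16-library fit 0.0101).

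Markers of cells at the edge of the dissection varied between libraries. The summed CPM of 11 choroid plexus genes ran from 1229 to 12739 in controls and from 303 to 11673 in epileptic libraries. Of the 11, 0 had an unadjusted P under 0.05 in either direction, beside 22.4% of all tested genes. Ependymal cilia genes were lower for 2 of 11 and higher for 0 (18.2%, below the 22.4% of all tested genes, median -0.28). These were Tmem212 (log2 fold change -1.14, SE 0.32, edgeR adjusted P = 0.127, 16-library fit 0.0101) and Ccdc153 (-0.74, SE 0.22, edgeR adjusted P = 0.131, 16-library fit 0.0234), and the summed level of the list was 88.4 to 143 CPM in controls and 42.7 to 124 in epileptic libraries. Haemoglobin alpha, Hba-a1, a marker of blood, had a log2 fold change of -0.69 (with SE 0.28, adjusted P by edgeR = 0.181, 16-library fit 0.0419), with a summed level of the blood list of 159 to 321 CPM in controls and 46.9 to 380 in epileptic libraries. Of 14 myelin genes 0 were higher and 1 lower (7.14% against 22.4%, median -0.23). Pyramidal cells belong to the hippocampus itself, and of their 15 genes 1 was higher and 2 were lower (20% against 22.4%). Their list showed no common direction, with 8 genes above 0, 7 below and a median of 0.13 (0.15 under sgLacZ, -0.07 under sgKcna1). The higher gene, Wfs1, rose by 0.37 on the log2 scale (SE 0.14). Its adjusted P by edgeR was 0.157, and 0.0448 in the 16-library fit. The 2 lower pyramidal genes, Spink8 and Bok, lay below every control in 9 of 12 libraries each (log2 fold changes -0.75, SE 0.22, and -0.47, SE 0.14; edgeR adjusted P = 0.131 and 0.128; 16-library fit 0.0285 and 0.0146). The part of these cells in the results was not tested.

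For the remaining lists, counts are to be set beside the 22.4% of all tested genes with an unadjusted P under 0.05. Of 20 cholesterol synthesis genes 5 were higher and 1 lower at an unadjusted P under 0.05, of 17 circadian clock genes 2 and 0, of 25 axon growth and guidance genes 2 and 1, and of 18 chaperone genes 1 and 2. Of 9 neurotrophin and receptor genes 2 were higher and 1 lower, of 19 neurogenesis and proliferation genes 1 and 1, of 16 cytokine signalling genes 1 and 0, and of 13 mitochondrially encoded genes 1 and 3. Among cell markers, endothelium and pericytes had 3 higher and 1 lower of 14, oligodendrocyte precursors 0 and 1 of 8, general neuronal genes 1 and 1 of 10, dentate granule cells 0 and 1 of 10, and neighbouring brain regions 1 and 0 of 10.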

How the data were processed

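RNA was extracted from the hippocampi of 17 mice and polyadenylated RNA was sequenced. The kit is unstranded in the labels and stranded in the study's methods; reverse- and forward-strand reads were near equal in every library. Per the submitters' processing notes reads were aligned to mm10 with STAR 2.7, and the authors deposited whole-number counts for each gene, with no scaling, in 3 columns (either strand, forward, reverse) for 55450 genes. The unstranded counts were used. Reads in overlapping genes are counted for neither, and genes whose strand counts added to over 1.05 times the unstranded count were treated as overlapping (3514 of those tested). Symbols came from a gene name table (32620 genes) and coordinates from RefSeq on GRCm38.p6. Transcript lengths came from the older build mm9 and covered 83.0% of tested genes.

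Testing used edgeR 4.0.16 under R 4.3.3, with filterByExpr (17615 genes left), TMM scaling, a coefficient per labelled group and no covariate. The pooled contrast was the mean of both epileptic groups minus control, tested two-sided by quasi-likelihood; P was adjusted by Benjamini-Hochberg across the table, with 0.05 as threshold. Single values were compared by exact permutation. Libraries of a group differed by more than sampling noise (chi-square per degree of freedom 8.67 to 220.2 over 40 pairs), so all were kept as separate samples. Each label names its own sample, and no source used here says more of their independence. A count of 3 reads was taken as the floor of detection, and it covers counting error only.

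Leading genes were the 5 with the smallest P in each direction among genes with a symbol, a mean of at least 5 CPM, no strand loss and no overlap between groups, since none passed the threshold. For each of 37 gene lists up to 4 members with the smallest P could be named, and the text names a part of these, picked after their values were seen, as were the other non-overlapping genes named. The members and the lists were chosen with earlier results of these data known. Alternatives were DESeq2 1.42.0, limma 3.58.1 voom, RLE scaling, no filter, strand counts added, covariates, a 2-group fit and leaving out libraries. The test was checked on simulated counts. Some genes that the naming rule selects are not reported here; they remain in the list counts.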

Additional observations from a re-analysis of the deposited data

Results flagged for a closer look

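Of 174 groups of 5 or 6 libraries in which the library at either end was compared with its neighbours by Dixon's test, 19 held a library far from the others, where chance gives about 1 in 20 groups (8.7). Epileptic sgKcna1 replicate 12 was that library in 9 of them. Its unmapped reads were 41.5%, and its next library of the group had 24.6%. It had 133 CPM of Kcna1, 69.8 of Nptx2, 1662 of Gria2, 40.6 of Mmp14, 17.5 of Tmem212 and 657 of Rpl21. Its ribosomal protein genes summed to 36612 CPM and its oxidative phosphorylation genes to 26390 CPM. In each case it was the highest of the 6 epileptic sgKcna1 libraries.

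Epileptic sgLacZ replicate 5 was far above its group for both interneuron genes, with 119 CPM of Pvalb and 810.5 CPM of Sst, where the next library had 59.6 and 440.3 CPM. Epileptic sgLacZ replicate 4, which had the lowest unmapped share, was high for Hcn4 (8.99 CPM) and Grik3 (66.6 CPM). Epileptic sgKcna1 replicate 1 was high for Hcn4 (5.41 CPM) and Inpp5d (8.70 CPM) and low for Elmod1 (210.1 CPM). Epileptic sgKcna1 replicate 11 had 18.3 CPM of Tap1. Among controls, replicate 14 was low for Kcnn1 (10.1 CPM) and replicate 13 high for Uqcrfs1 (281 CPM).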

How the results depend on the processing

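The pooled count of 0 genes (edgeR) became 634 with DESeq2, 5748 with voom and sample quality weights, 7 without the expression filter, 1094 with the unmapped share as a covariate, and 0 to 2904 when each library was left out in turn. Genes at an unadjusted P under 0.05 (3948) numbered 7674 with voom weights, 6537 without the filter and 2490 to 6238 with a library left out. The genes not overlapping between 12 epileptic and 5 control libraries (44) became 40 to 278 with a library left out. They became 1253 without the 6 libraries with reads of both sexes and 423 without 3 doubted libraries (both chosen after seeing the data). The doubted libraries were epileptic sgKcna1 replicate 12 and control replicates 13 and 14. Fewer libraries separate more readily, so these counts are not comparable with 44. The guide difference within epileptic libraries (0 genes) became 134 with DESeq2, 12 with voom weights, 1 without the filter and 0 to 1508 with a library left out. The log2 fold change of Kcna1 turned to 0.016 with the unmapped covariate and ranged from -0.545 to 0.044 with a library left out, above 0 in 6 of these fits. With strand counts added, Nefl turned to 0.012 and Timp3 to -0.0086. The cause was not tested. No paired analysis was possible because the groups compared share no replicate numbers.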

Other observations

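Gh, the growth hormone gene of the pituitary, had the lowest log2 fold change of the genes named here, -2.85 (SE 0.68, edgeR adjusted P = 0.127), with 9.34 ± 11.0 CPM (SD, n = 12) in epileptic and 53.4 ± 73.9 (SD, n = 5) in control libraries, and it was noticed after its values were seen. Inhba, an activity-induced gene of the TGF-beta family, had a log2 fold change of 0.07 (SE 0.45) and Penk, the enkephalin precursor, 0.42 (SE 0.28), with edgeR adjusted P of 0.934 and 0.361, and both were also chosen after their values were seen.

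RefSeq promoters on GRCm38.p6, from 250 bases before to 50 after a start site, were found for 6 of the 10 leading genes (9 windows). The CRE, AP-1, MEF2 and NRSE motifs were searched on both strands. None of the 9 windows held any of the 4, which says only that these letters are not in these windows. Over all 32851 windows listed, 1.79%, 7.81%, 3.19% and 0.00609% held them.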
